A study of Homo sapiens with 6 samples.

Results

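Aminoacyl-tRNA synthetases attach each amino acid to its tRNA, and their genes were followed after knockdown of LAPTM4B, which encodes a protein of lysosomal and late endosomal membranes. The module holds 35 of the 61806 genes of the deposited table, taken by gene symbol: 19 cytosolic synthetases (symbols ending in 1, with FARSA and FARSB) and 16 mitochondrial ones (symbols ending in 2). All 35 had enough reads to be tested. The libraries are labelled as RNA of HepG2, an established human hepatoma line, selected for the surface glycoprotein CD133, with 3 libraries of LAPTM4B knockdown cells and 3 of control cells labelled wild type. Titles carry shLAP for the knockdown and NC for the control libraries, and the time after knockdown and the number of clones were not given in the sources used here. Whether the 3 libraries of a group stem from separate cultures is not said either, and the p-values cover the spread between libraries, which may be technical.

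Each synthetase recognises 1 amino acid and the tRNAs that carry it, and the pool of charged tRNAs feeds the ribosome. Cytosol and mitochondria translate with separate tRNAs, so most amino acids have a pair of nuclear genes, and the mitochondrial enzyme is imported. In mammalian cells a shortage of amino acids leaves tRNAs uncharged, which activates the kinase GCN2 and then the transcription factor ATF4. Genes of many cytosolic synthetases are known targets of ATF4, as are amino acid transporters and synthesis enzymes.

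The labels were checked on LAPTM4B, which averaged 232 ± 5.05 CPM after knockdown and 334 ± 13.9 CPM in control cells (log2 change -0.53, SE 0.04, edgeR adjusted p = 3.25e-12). Library totals ran between 15204269 and 16303949 counts in the knockdown and between 15667396 and 19987318 in the control group. Of 10 hepatocyte and hepatoma markers, 3 (ALB, APOA1 and APOB) had no count in any library, 6 had at most 3 counts in every library and AFP had 0 to 4. The list summed to 9.25 to 9.99 CPM (read counts relative to library size, TMM-scaled) in knockdown and 18.1 to 20.1 CPM in control libraries, and 2 of its 3 tested genes fell. PROM1, the gene of CD133, had 6 to 12 counts in the knockdown libraries and 1 to 3 in the control libraries. HNF4A, a liver transcription factor, had 52 to 66 counts in knockdown and 62 to 104 in control libraries. FGB, a fibrinogen chain, had 84 to 93 counts in knockdown and 197 to 233 in control libraries, and SERPINA1 0 to 5 counts in knockdown and 35 to 49 in control libraries. The labelled line thus showed some of its markers at low levels and lacked others, and PROM1 was near 0. Markers of other cell types also moved. The summed level of 4 bile duct markers, of which 1 rose and 2 fell, was 262 to 269 CPM in knockdown and 77.5 to 78.7 CPM in control libraries, and KRT7 made up most of it after knockdown. For 4 fibroblast markers, of which 2 rose and none was at 0, the sums were 15.9 to 18.0 CPM in knockdown and 9.59 to 12.2 CPM in control libraries. Sums of 3 endothelial markers were 0.510 to 0.776 CPM in knockdown and 1.14 to 3.11 CPM in control libraries (1 fell), and those of 3 leukocyte markers 0.179 to 0.319 CPM in knockdown and 0.583 to 1.03 CPM in control libraries (none had reads enough to test). The part of such differences in the results was not tested. In bulk RNA, a change in the share of a kind of cell and a change per cell cannot be told apart.

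Cytosolic synthetase genes were mostly higher after LAPTM4B knockdown, and called changes of mitochondrial ones all stayed under 1.5-fold. Of 19 cytosolic genes, 13 rose, 3 fell and 3 did not pass an edgeR adjusted p of 0.05. Of 16 mitochondrial genes, 6 rose, 1 fell and 9 did not pass. The cytosolic rises were 68.4% of the group and the mitochondrial ones 37.5%, beside 28% of all 16354 genes tested that rose. Genes that fell were 15.8% of the cytosolic and 6.25% of the mitochondrial group, beside 27.9% of all genes tested. In either direction 55.9% of all genes were called. The median log2 change was 0.54 for the cytosolic group, 0.13 for the mitochondrial group and 0.01 over all genes tested.

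**Figure D1:**
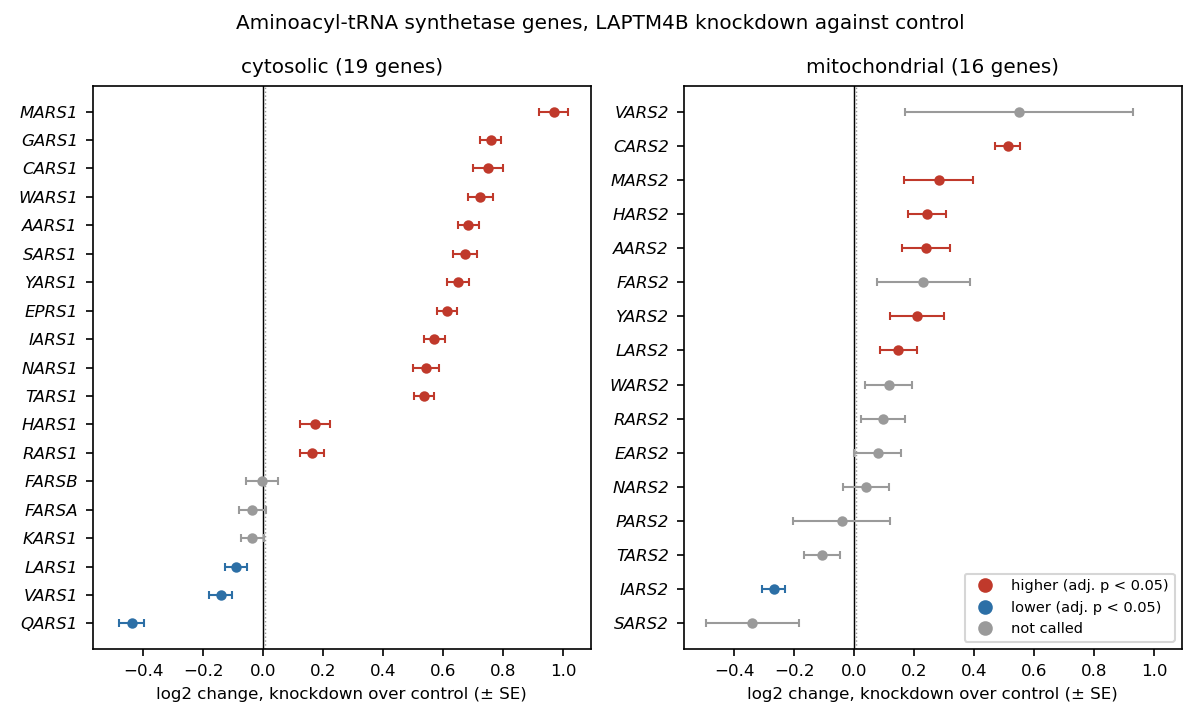
Log2 change of each synthetase gene, knockdown over control (x axis, edgeR, bars ± 1 SE), for the 19 cytosolic genes on the left and the 16 mitochondrial genes on the right. Colours mark genes called higher, lower or not called at an adjusted p of 0.05, and a dotted line the median over all genes tested. A set of 11 cytosolic genes lies between 0.54 and 0.97, apart from the other 8, which lie between -0.44 and 0.17.

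The cytosolic rises fell into a high group and a low pair. The upper 11 genes had log2 changes between 0.54 (TARS1) and 0.97 (MARS1), and the next, HARS1, was at 0.17. A called rise of at least 1.5-fold was seen for 8 of the 19 cytosolic genes and for 0 of the 16 mitochondrial genes, beside 8.66% of all genes tested. None of the 35 was called at 2-fold or more, beside 3.9% of all genes tested that rose that far. The 11 lay between percentiles 88.3 and 95.7 of the log2 changes of all genes.

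MARS1 (chromosome 12, 57475445 to 57517569, plus strand, hg38) encodes the enzyme that charges methionine tRNAs, the initiator tRNA included. It stood at 149, 154 and 164 CPM in the knockdown libraries, against 77.6, 75.4 and 85.1 CPM in the control libraries. All 3 knockdown libraries were above all 3 controls, and the change was 1.96-fold, a log2 change of 0.97 (edgeR adjusted p = 2.36e-15; SE 0.05). GARS1 (chromosome 7, 30580533 to 30634033) makes the glycyl enzyme of both cytosol and mitochondria from 1 gene. It was at 379, 373 and 383 CPM in the knockdown libraries, against 227, 219.5 and 224 CPM in the control libraries. The groups did not overlap, and the log2 change was 0.76 (edgeR adjusted p = 2.52e-16; SE 0.03).

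CARS1 (chromosome 11, 3000922 to 3057613), the cysteinyl enzyme, was at 113, 113 and 108 CPM in the knockdown libraries, against 64.9, 62.6 and 70.7 CPM in the control libraries. Its lowest knockdown library lay above its highest control, with a log2 change of 0.75 (edgeR adjusted p = 7.3e-13; SE 0.05). WARS1 (chromosome 14, 100333790 to 100376805), the tryptophanyl enzyme, is also known as a gene induced by interferon gamma. It was at 239, 251 and 247 CPM in the knockdown libraries, against 148, 139 and 158 CPM in the control libraries. Here too the groups were apart, with a log2 change of 0.72 (edgeR adjusted p = 6.69e-14; SE 0.04).

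**Figure D2:**
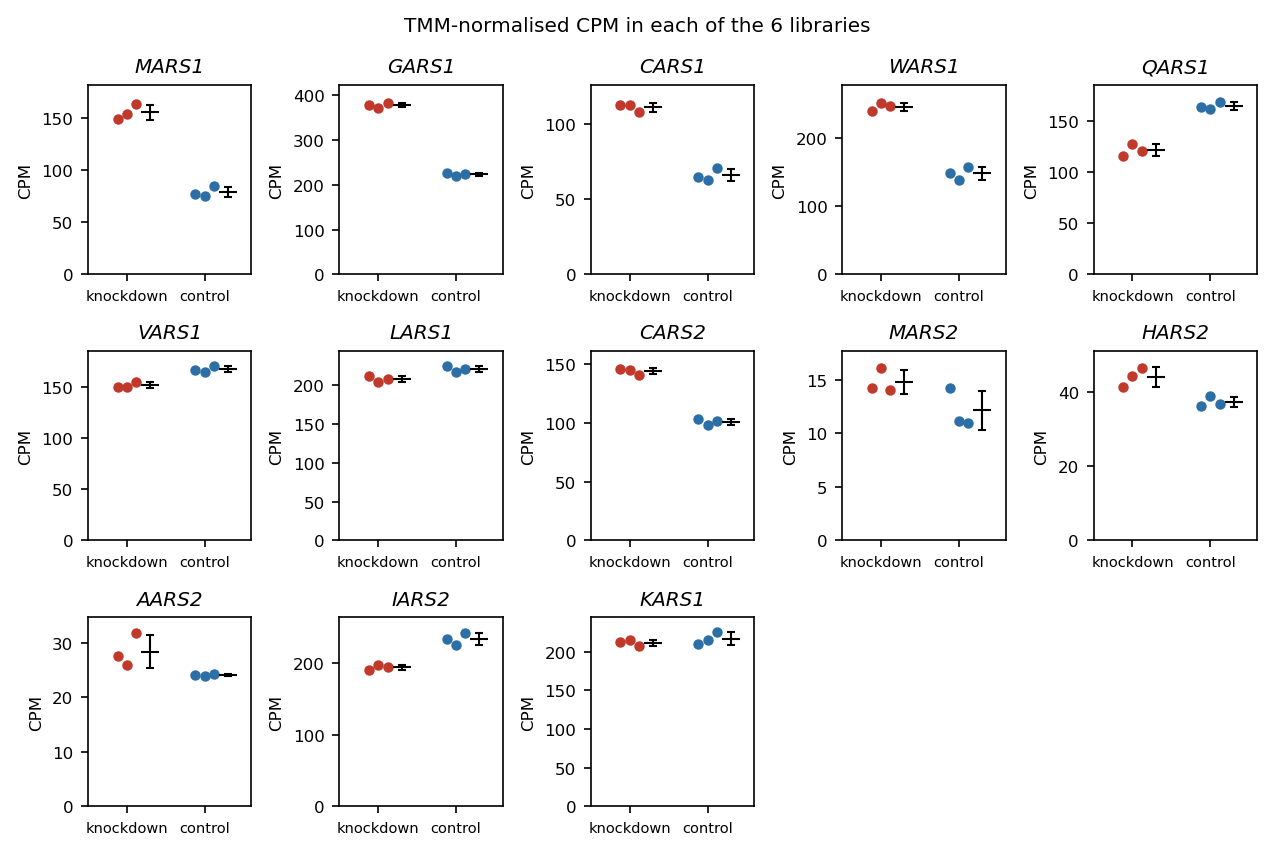
TMM-normalised CPM (y axis, from 0) in each of 3 knockdown and 3 control libraries for the synthetases with the largest called changes, and for KARS1, with mean ± SD in black. MARS1, GARS1, CARS1 and WARS1 have all knockdown libraries above all controls, QARS1 and IARS2 all below, and KARS1 and MARS2 overlap.

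The other 7 genes of the high group rose by 1.45- to 1.61-fold. AARS1, the alanyl enzyme, averaged 309 ± 3.11 CPM after knockdown and 192 ± 3.48 CPM in control cells, a 1.61-fold rise (edgeR adjusted p = 4.09e-15). SARS1 charges serine and also the tRNA on which selenocysteine is made, and rose 1.59-fold. YARS1, the tyrosyl enzyme, rose 1.57-fold. EPRS1, a single protein that charges both glutamate and proline tRNAs, averaged 511 ± 7.93 CPM after knockdown and 334 ± 3.46 CPM in control cells, a 1.53-fold rise (edgeR adjusted p = 1.02e-14). IARS1, for isoleucine, rose 1.49-fold and NARS1, for asparagine, 1.46-fold. TARS1, for threonine, had the most reads of all 35 genes and averaged 804 ± 7.81 CPM after knockdown and 554 ± 23.2 CPM in control cells, a 1.45-fold rise (edgeR adjusted p = 3.24e-13). None of these 7 had overlapping groups. Each of the 11 kept its direction and its call in all 15 alternative fits.

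QARS1 (chromosome 3, 49095932 to 49105130), the glutaminyl enzyme, fell most. It was at 116, 128 and 121 CPM in the knockdown libraries, against 164, 162 and 169 CPM in the control libraries. Every knockdown library lay below every control, and the log2 change was -0.44 (edgeR adjusted p = 1.5e-09; SE 0.04). VARS1 (chromosome 6, 31777518 to 31795752) charges valine and is known to bind the elongation factor complex EEF1. It was at 151, 150.2 and 156 CPM in the knockdown libraries, against 167, 165 and 171 CPM in the control libraries, again without overlap, a log2 change of -0.14 (edgeR adjusted p = 0.00270; SE 0.04). The VARS1 call was lost with scaling to library totals (edgeR adjusted p = 0.0664). LARS1 (chromosome 5, 146110566 to 146182696), the leucyl enzyme, which is also known as a leucine sensor for mTORC1, was at 213, 204 and 208 CPM in the knockdown libraries, against 225, 218 and 221 CPM in the control libraries. The groups were apart, but by a log2 change of no more than -0.09 (edgeR adjusted p = 0.0398; SE 0.04). That call was lost without knockdown replicate 1 (0.0570), 2 (0.191) or 3 (0.113) and without control replicate 1 (0.113), all edgeR adjusted p. With scaling to library totals the LARS1 log2 change was -0.03.

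Of the other cytosolic genes, HARS1 (histidine) averaged 96.7 ± 6.77 CPM after knockdown and 85.8 ± 1.92 CPM in control cells, a log2 change of 0.17 (edgeR adjusted p = 0.00459; SE 0.05). Without knockdown replicate 2 this was not called (edgeR adjusted p = 0.0753). RARS1 (arginine) averaged 167 ± 5.81 CPM after knockdown and 149.5 ± 3.76 CPM in control cells, a log2 change of 0.16 (edgeR adjusted p = 0.00108; SE 0.04). KARS1 makes the lysyl enzyme of both compartments by alternative splicing. It was at 213, 215 and 208 CPM in the knockdown libraries, against 209.9, 216 and 226 CPM in the control libraries. The groups overlapped, and the log2 change of -0.04 did not pass (edgeR adjusted p = 0.437; 95% interval from -0.11 to 0.04). FARSA and FARSB encode the alpha and beta subunits of the phenylalanyl enzyme. FARSA was at 118 ± 2.97 CPM after knockdown and 121 ± 6.21 CPM in control cells (edgeR adjusted p = 0.520) and FARSB at 86.9 ± 6.08 CPM after knockdown and 87.0 ± 4.43 CPM in control cells (edgeR adjusted p = 0.969). The 95% intervals (normal, from the SE) ran from -0.12 to 0.05 for the log2 change of FARSA and from -0.11 to 0.10 for that of FARSB. The pair of genes that serve both compartments thus had log2 changes of 0.76 (GARS1) and -0.04 (KARS1).

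The cytosolic genes were divided by a list of 13 known from other studies as targets of ATF4. Of these 13, 11 rose and 2, LARS1 and VARS1, fell, with a median log2 change of 0.65. Of the 6 cytosolic genes not on that list, 2 rose (HARS1 and RARS1), 1 fell (QARS1) and 3 were not called, and the median was -0.02. On the list 84.6% rose and 15.4% fell, and off it 33.3% and 16.7%, beside 28% and 27.9% of all genes tested. The shares off the list are thus near those of all genes for rises. All 11 genes of the high group are on the list. The list was chosen with earlier results of these data known, so this overlap is a description and no test. Summed over the 13, the level per length was 599 ± 5.31 FPKM in the knockdown and 389 ± 9.25 FPKM in the control group (FPKM as deposited, counts per kilobase of exon scaled to the library total). For the other 6 the sums were 199 ± 1.78 FPKM in the knockdown and 196 ± 2.03 FPKM in the control group.

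ATF4 binds, with C/EBP partners, a response element whose core was searched as TGATGNAA on both strands of the promoter, taken as 250 bases before to 50 after the transcript start (RefSeq, GRCh38.p14). Promoters were matched for 30 of the 35 genes. The letters occur in 6 of 16 cytosolic promoters, in 1 of 14 mitochondrial ones and in 3.67% of all 27305 promoters. All 6 cytosolic genes with a match rose, and all are of the high group and on the ATF4 list. These are shown because they carry the same letters, TTGCATCA or its complement TGATGCAA. Each stretch reads 5′ to 3′ on the strand of the gene, with the match in capitals.
MARS1 (chr12:57488004-57488097, plus strand): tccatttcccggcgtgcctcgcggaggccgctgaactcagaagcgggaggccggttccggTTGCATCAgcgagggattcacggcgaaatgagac
CARS1 (chr11:3057394-3057485, minus strand): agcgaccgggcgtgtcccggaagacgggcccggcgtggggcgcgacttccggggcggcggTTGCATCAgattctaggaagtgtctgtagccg
IARS1 (chr9:92293668-92293770, minus strand): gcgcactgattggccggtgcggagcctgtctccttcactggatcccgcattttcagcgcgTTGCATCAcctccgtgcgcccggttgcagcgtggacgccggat
TARS1 (chr5:33440907-33440994, plus strand): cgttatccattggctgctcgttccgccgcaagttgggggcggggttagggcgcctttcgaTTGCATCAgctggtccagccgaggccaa
NARS1 (chr18:57621807-57621882, minus strand): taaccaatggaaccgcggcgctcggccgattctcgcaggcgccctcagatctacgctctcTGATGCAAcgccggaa
AARS1 (chr16:70289646-70289753, minus strand): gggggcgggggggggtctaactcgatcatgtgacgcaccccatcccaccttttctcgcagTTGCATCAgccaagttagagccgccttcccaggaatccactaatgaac

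In MARS1, CARS1, IARS1, TARS1 and NARS1 the first base of the match lies within 15 bases of the annotated start, at -4, -2, -13, 3 and 15 relative to it (the first transcribed base is 1, with no 0), and in AARS1 at -187. In NARS1 the match lies on the strand of the gene, and in the others on the opposite strand. The mitochondrial gene with a match is YARS2, which has TGATGGAA at -197. No exact match lay in this window for the 6 other matched cytosolic genes that rose, among them GARS1 and WARS1. None lay there for the 4 cytosolic genes with a matched promoter that did not rise. LARS1 and VARS1, which are on the ATF4 list and fell, had no matched promoter and were not searched. The E-box CACGTG, searched likewise, is in 1 of 16 cytosolic promoters (IARS1) and 3 of 14 mitochondrial ones (CARS2, EARS2 and MARS2), beside 7.43% of all promoters.

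Several cytosolic synthetases sit with scaffold proteins in the multi-synthetase complex. Of the 7 analysed here, 4 rose (MARS1, EPRS1, IARS1 and RARS1), 2 fell (QARS1 and LARS1) and KARS1 was not called. Their median log2 change was 0.16. Of the 12 cytosolic genes outside the complex, 9 rose and 1 fell, with a median of 0.60. In the complex 57.1% rose and 28.6% fell, and outside it 75% and 8.33%, beside 28% and 27.9% of all genes tested. Its scaffold genes also differed among themselves. AIMP2 averaged 66.5 ± 1.93 CPM after knockdown and 45.0 ± 2.39 CPM in control cells (log2 change 0.56, SE 0.06, edgeR adjusted p = 2.03e-09), AIMP1 averaged 80.9 ± 1.74 CPM after knockdown and 90.1 ± 3.33 CPM in control cells (log2 change -0.15, SE 0.05, edgeR adjusted p = 0.00668), and EEF1E1 was at a log2 change of 0.12 (edgeR adjusted p = 0.168). The AIMP1 call was lost with scaling to library totals (edgeR adjusted p = 0.0925).

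Synthetases form 2 unrelated structural classes. Among cytosolic genes, 7 of 10 of class I rose and 3 fell, with a median log2 change of 0.59. Of 9 of class II, 6 rose and 3 were not called, and the median was 0.54. In class I 70% rose and 30% fell, and in class II 66.7% and 0%, beside 28% and 27.9% of all genes tested. Log2 changes ran from -0.44 to 0.97 in class I and from -0.04 to 0.76 in class II. The classes were not tested against each other.

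Among mitochondrial synthetases CARS2 (chromosome 13, 110641412 to 110713603), for cysteine, rose most of those called. It was at 146, 145 and 141 CPM in the knockdown libraries, against 103, 98.1 and 101 CPM in the control libraries. The groups were apart, with a log2 change of 0.51 (edgeR adjusted p = 5.09e-11; SE 0.04). IARS2 (chromosome 1, 220094132 to 220148041), for isoleucine, fell. It was at 191, 197 and 194 CPM in the knockdown libraries, against 233, 225 and 242 CPM in the control libraries. No knockdown library reached a control, and the log2 change was -0.27 (edgeR adjusted p = 1.02e-06; SE 0.04). HARS2, for histidine, was at 41.2, 44.4 and 46.6 CPM in the knockdown libraries, against 36.3, 38.8 and 36.9 CPM in the control libraries, a log2 change of 0.24 (edgeR adjusted p = 0.00198; SE 0.06). These 3 kept their calls in all 15 alternative fits.

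The other mitochondrial calls were small and depended on single libraries. AARS2, for alanine, was at 27.5, 25.9 and 31.7 CPM in the knockdown libraries, against 24.0, 23.8 and 24.3 CPM in the control libraries, a log2 change of 0.24 (edgeR adjusted p = 0.0135; SE 0.08). It was not called without knockdown replicate 3 (0.141) or control replicate 1 (0.0516). MARS2, for methionine, was at 14.2, 16.1 and 14.1 CPM in the knockdown libraries, against 14.3, 11.1 and 11.0 CPM in the control libraries. Its groups overlapped, since control replicate 1 lay above 2 knockdown libraries, and the log2 change was 0.28 (edgeR adjusted p = 0.0379; SE 0.11). It was not called without knockdown replicate 2 (0.166) or control replicate 2 (0.126) or 3 (0.129). YARS2, for tyrosine, had a log2 change of 0.21 (edgeR adjusted p = 0.0469; SE 0.09) and was not called without knockdown replicate 1 (0.0954) or 2 (0.236) or control replicate 1 (0.200) or 2 (0.0634). LARS2, for leucine, had a log2 change of 0.15 (edgeR adjusted p = 0.0424; SE 0.06) and was not called without knockdown replicate 2 (0.103) or 3 (0.221) or control replicate 1 (0.218) or 2 (0.0619). Without knockdown replicate 2, control replicate 1 or control replicate 2, 3 mitochondrial genes were higher rather than 6, and with DESeq2 2 were. All values in brackets are edgeR adjusted p.

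The other 9 mitochondrial genes were not called. They were EARS2 (glutamate), FARS2 (phenylalanine), NARS2 (asparagine), PARS2 (proline), RARS2 (arginine), SARS2 (serine), TARS2 (threonine), VARS2 (valine) and WARS2 (tryptophan), with log2 changes between -0.34 (SARS2, edgeR adjusted p = 0.0645) and 0.55 (VARS2, edgeR adjusted p = 0.229). VARS2 rested on few reads, at 0.829, 1.29 and 1.14 CPM in the knockdown libraries, against 0.834, 0.713 and 0.672 CPM in the control libraries. SARS2 and TARS2 had all knockdown libraries below all controls and RARS2 all above, none of them past the threshold. Groups did not overlap in the higher direction for 6 mitochondrial and 13 cytosolic genes, beside 30.7% of all genes tested, and in the lower direction for 3 and 3, beside 29.7%. At these depths the SE of a log2 change was at most 0.05 for the cytosolic genes, but reached 0.16 for PARS2 and 0.38 for VARS2, so that small changes were less detectable in the mitochondrial group.

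A ratio of the cytosolic to the mitochondrial gene within each library does not depend on how libraries are scaled. It was formed from FPKM for 14 amino acids, as 15 pairs, since both FARSA and FARSB pair with FARS2. In 9 pairs every knockdown library had a higher ratio than every control, in 2 every one had a lower ratio and in 4 the groups overlapped. No such share was computed over other pairs of genes. For single genes the groups were apart in 30.7% of all genes tested with knockdown above and in 29.7% with knockdown below. The difference in mean log2 ratio, knockdown minus control, had a median of 0.44 over the 15. Each pair was tested with an exact two-sided permutation test, in which 3 libraries against 3 cannot go below p = 0.1. That value was reached by 11 pairs, and adjusted over the 15 pairs it was 0.136, so no single pair could pass.

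The serine pair differed most. SARS1 over SARS2 was 30.8, 32.9 and 33.8 in the knockdown libraries, against 15.7, 15.9 and 16.7 in the control libraries, a 2.02-fold higher ratio after knockdown. Isoleucine followed, with IARS1 over IARS2 at 0.357, 0.344 and 0.355 in the knockdown libraries, against 0.190, 0.202 and 0.199 in the control libraries, where the cytosolic gene rose and the mitochondrial one fell. For methionine the ratio was 4.52, 4.11 and 5.02 in the knockdown libraries, against 2.34, 2.91 and 3.33 in the control libraries. Both genes of the cysteine pair rose, and CARS1 over CARS2 was 0.806, 0.810 and 0.798 in the knockdown libraries, against 0.655, 0.664 and 0.726 in the control libraries. For valine, VARS1 over VARS2 was 200.1, 129.9 and 151 in the knockdown libraries, against 214, 251 and 281 in the control libraries, a lower ratio that rests on the few reads of VARS2. The leucine ratio was also lower, with 2.83, 2.49 and 2.41 in the knockdown libraries, against 3.20, 2.91 and 2.96 in the control libraries. Histidine, arginine and both phenylalanine pairs overlapped between the groups. The exact p was 0.5 for HARS1 over HARS2, 0.4 for RARS1 over RARS2, 0.3 for FARSA over FARS2 and 0.5 for FARSB over FARS2.

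**Figure D3:**
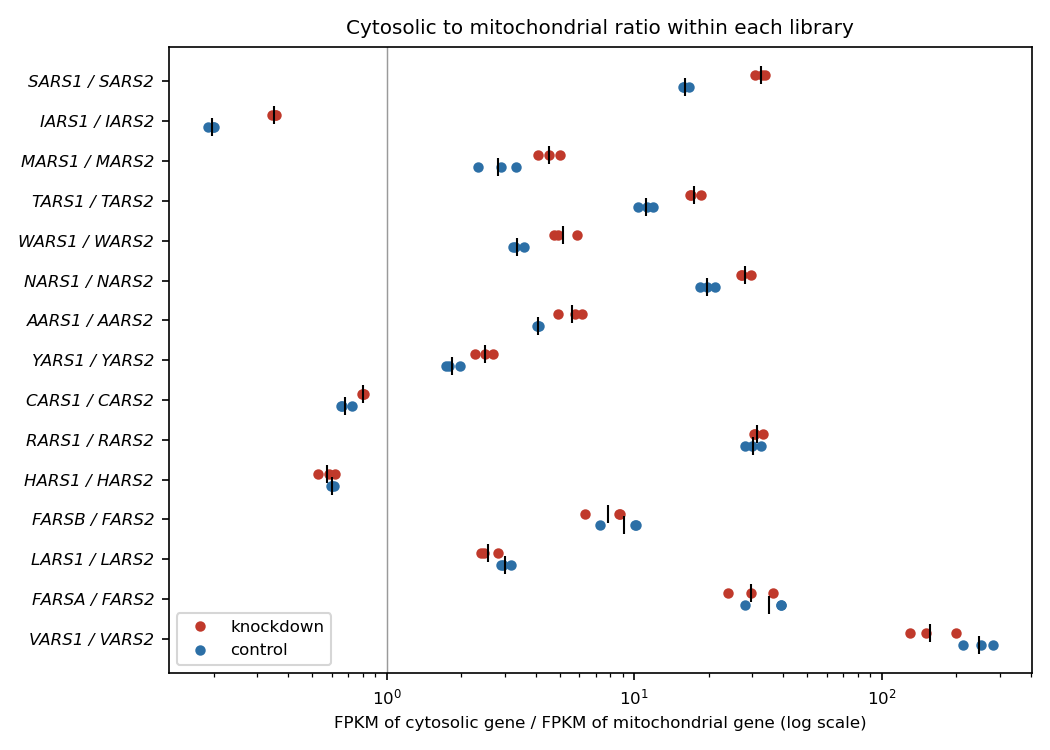
Ratio of the FPKM of the cytosolic gene to that of its mitochondrial counterpart in each library (x axis, log scale) for 15 pairs, with knockdown above control in each row and ticks at geometric means. In 9 pairs, from SARS1 with SARS2 to CARS1 with CARS2, the 3 knockdown points lie to the right of the 3 control points. The ratios run from 0.352 after knockdown and 0.197 in control cells for isoleucine to 160.2 after knockdown and 249 in control cells for valine, both as means of 3.

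Levels between genes were compared in deposited FPKM, which divides counts by an exonic length of 2147 (YARS2) to 22418 bases (IARS1). The longest of these lengths go beyond a single transcript, and FPKM is then lower than it would be per transcript. TARS1 was highest, at 193 ± 1.13 FPKM after knockdown and 127 ± 4.23 FPKM in control cells. EPRS1 came next at 97.9 ± 1.91 FPKM after knockdown and 61.4 ± 0.235 FPKM in control cells. The mitochondrial gene with the highest level was IARS2, at 47.8 ± 0.898 FPKM after knockdown and 55.2 ± 1.49 FPKM in control cells, which put it next after EPRS1 in control cells. KARS1 was at 53.3 ± 0.741 FPKM after knockdown and 52.4 ± 1.66 FPKM in control cells, within 2 SD of IARS2 in control cells. SARS1 was at 52.4 ± 1.01 FPKM after knockdown and 31.5 ± 0.918 FPKM in control cells and so reached the level of KARS1 after knockdown. The lowest was VARS2, at 0.170 ± 0.0361 FPKM after knockdown and 0.113 ± 0.0153 FPKM in control cells. The median level per gene was 26.4 FPKM after knockdown and 22.8 FPKM in control cells for the cytosolic group, and 4.54 FPKM after knockdown and 3.82 FPKM in control cells for the mitochondrial group.

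Summed over the 19 cytosolic genes, FPKM was 789.9, 800.4 and 803 in the knockdown libraries, against 582, 577 and 598 in the control libraries, a ratio of means of 1.36. Over the 16 mitochondrial genes it was 127, 133 and 132 in the knockdown libraries, against 126, 125 and 126 in the control libraries, a ratio of 1.04. With TMM-scaled CPM per kilobase the ratios were 1.31 for the cytosolic and 0.998 for the mitochondrial sum, so the direction of the mitochondrial sum depends on the scaling.

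Synthetase genes often lie head to head with another gene. A partner on the opposite strand, with at least 1 CPM and a start within 1000 bases, was found for 13 of the 35 in the deposited coordinates. HARS1 and HARS2 are such a pair, on chromosome 5, and both rose, with log2 changes of 0.17 and 0.24. The 84 bases between their annotated RefSeq starts are known as a promoter shared by both and are shown for that reason, on the strand of HARS2, in lower case as no motif was found there.
HARS1 and HARS2 (chr5:140691371-140691454, plus strand): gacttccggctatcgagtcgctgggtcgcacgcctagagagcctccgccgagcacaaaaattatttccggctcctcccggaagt

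Elsewhere partners did not always move alike. WDR25, head to head with WARS1, fell to 13.2 ± 0.425 CPM after knockdown, against 17.0 ± 0.891 CPM in control cells (edgeR adjusted p = 0.00197). ING1, opposite CARS2, fell by 0.30 on the log2 scale (edgeR adjusted p = 0.000287). MRPS12, a mitochondrial ribosomal protein gene opposite SARS2, rose by 0.44 (edgeR adjusted p = 2.37e-05), where SARS2 was at -0.34. DDX19B, opposite AARS1, was at a log2 change of 0.16 (edgeR adjusted p = 0.171). These partners were named after their values were seen.

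Whether counting used strand was not given in the sources used here, and 13 of the 35 synthetase genes overlap a neighbour that has at least 1 CPM, so reads of such pairs may have been counted together. MARS1 shares 982 bases with DDIT3, the stress factor CHOP, which rose to 27.0 ± 1.37 CPM after knockdown, against 12.7 ± 2.24 CPM in control cells (edgeR adjusted p = 8.2e-10). The difference between the groups was 14.4 CPM for DDIT3 and 76.2 CPM for MARS1. GARS1 overlaps the non-coding GARS1-DT, which fell by 0.32 on the log2 scale (edgeR adjusted p = 0.000931). YARS2 lies opposite DNM1L, whose level was 139 CPM after knockdown and 109 CPM in control cells, with a larger difference in CPM than YARS2 itself. HARS2 overlaps ZMAT2 on its own strand over 626 bases, and ZMAT2 rose by 0.47 (edgeR adjusted p = 1.8e-08). The difference between the groups was 27.6 CPM for ZMAT2 and 6.77 CPM for HARS2. The part of shared reads in the HARS2 call was not tested, and the alternative fits do not separate such reads. The 14 synthetase pseudogenes of the table had at most 3 counts in any library.

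Genes of the steps around tRNA charging were read from the same fit. Of 24 regulators and targets of the amino acid response, 16 rose (66.7%, beside 28% of all genes tested) and 5 fell (20.8%, beside 27.9%), with a median log2 change of 0.71. ATF4 itself, named after its values were seen, averaged 247 ± 2.50 CPM after knockdown and 158 ± 5.77 CPM in control cells (log2 change 0.64, SE 0.04, edgeR adjusted p = 7.26e-14), a change within the range of the 11 high synthetases. Also named after their values were seen, the 3 genes not called were ATF3 (-0.07), TRIB3 (-0.06) and EIF2AK4, the gene of GCN2 (-0.04). Of the related kinase genes, EIF2AK3 (-0.21) and EIF2AK1 (-0.12) were called lower, each in 10 of 15 alternative fits. EIF2AK2 (0.35) was called higher in all 15. PSAT1, of serine synthesis, rose 2.31-fold, and the transporter subunit genes SLC7A5 and SLC3A2 3.20-fold and 3.10-fold, more than any synthetase. SLC38A2, a transporter of small neutral amino acids, fell by 0.61 on the log2 scale, the lipoprotein receptor gene VLDLR by 1.18 and SHMT2, mitochondrial serine hydroxymethyltransferase, by 0.27.

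Of 17 genes of tRNA maturation and export, 12 rose (70.6%, beside 28% of all genes tested) and 1 fell (5.88%, beside 27.9%). Their median log2 change was 0.26. DESeq2 called 9 of them higher, and edgeR 10 to 11 with 1 library left out. XPOT, the nuclear exporter of tRNA, was at 442, 447 and 429.8 CPM in the knockdown libraries, against 323, 326 and 334 CPM in the control libraries. The groups did not overlap (log2 change 0.42, SE 0.03, edgeR adjusted p = 3.46e-11). RPP40 and RPP25, protein subunits of RNase P, which trims the 5′ end of tRNA, rose 1.74-fold and 1.44-fold. TSEN34, a tRNA splicing endonuclease subunit, fell by 0.35. Of 12 genes of RNA polymerase III and its factors, which transcribe tRNA genes, 5 rose (41.7%, beside 28% of all genes tested) and 2 fell (16.7%, beside 27.9%). POLR3C and POLR3B rose 1.57-fold and 1.52-fold. POLR3G fell to 22.9 ± 2.03 CPM after knockdown, against 47.8 ± 0.841 CPM in control cells, and POLR3D fell by 0.38 on the log2 scale.

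Elongation factors act after charging. Of 6 cytosolic elongation factor genes 3 rose (EEF1A2 1.49-fold, EEF1B2 1.17-fold and EEF1D 1.15-fold) and 2 fell, which is 50% and 33.3%, beside 28% and 27.9% of all genes tested. EEF2, the translocation factor, fell by 0.27 on the log2 scale. EEF1A1, which brings charged tRNA to the ribosome, had a log2 change of -0.08 (edgeR adjusted p = 0.0381; SE 0.03). That call was lost without knockdown replicate 1 (0.291) or 2 (0.0819) and without control replicate 2 (0.193), all edgeR adjusted p. The other one, EEF1G, had 2 to 16 deposited counts per library, under 1 CPM on average in both groups, and did not pass. Whether such low counts reflect its RNA level was not tested. Of 9 mitochondrial translation factor genes 2 rose (GFM1 1.46-fold and MTIF2 1.15-fold), 22.2% beside 28% of all genes tested, and 7 did not pass.

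The amidotransferase subunits GATB, GATC and QRSL1 make glutaminyl-tRNA in mitochondria, and the formyltransferase MTFMT also acts on charged mitochondrial tRNAs. Of these 4 genes 0 were called by edgeR, beside 55.9% of all genes tested called in either direction. By edgeR's unadjusted p under 0.05 and by DESeq2 the count was also 0. QRSL1 came nearest, with all knockdown libraries above all controls (log2 change 0.17, edgeR adjusted p = 0.0850). In the selenocysteine pathway, which starts from the serine that SARS1 attaches, 2 of 6 rose (33.3%, beside 28% of all genes tested) and 3 fell (50%, beside 27.9%). SEPHS1 and SEPHS2, the selenophosphate synthetase genes, rose 1.48-fold and 1.24-fold. SECISBP2 and the elongation factor gene EEFSEC fell by 0.39 and 0.46 on the log2 scale. SEPSECS, the last enzyme of selenocysteine synthesis, had a log2 change of -0.32 (edgeR adjusted p = 0.0177; SE 0.11), not called without knockdown replicate 2 (0.0978) or 3 (0.0799) or control replicate 1 (0.138). Of 6 proofreading and synthetase-like genes 1 rose (16.7%, beside 28% of all genes tested) and 0 fell (beside 27.9%). The 1 that rose was TRNT1, which adds the CCA end to tRNA, by 1.22-fold. TARS3, a further threonyl synthetase gene, was at 23.2 ± 1.81 CPM after knockdown and 21.1 ± 1.22 CPM in control cells (edgeR adjusted p = 0.179).

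**Figure D4:**
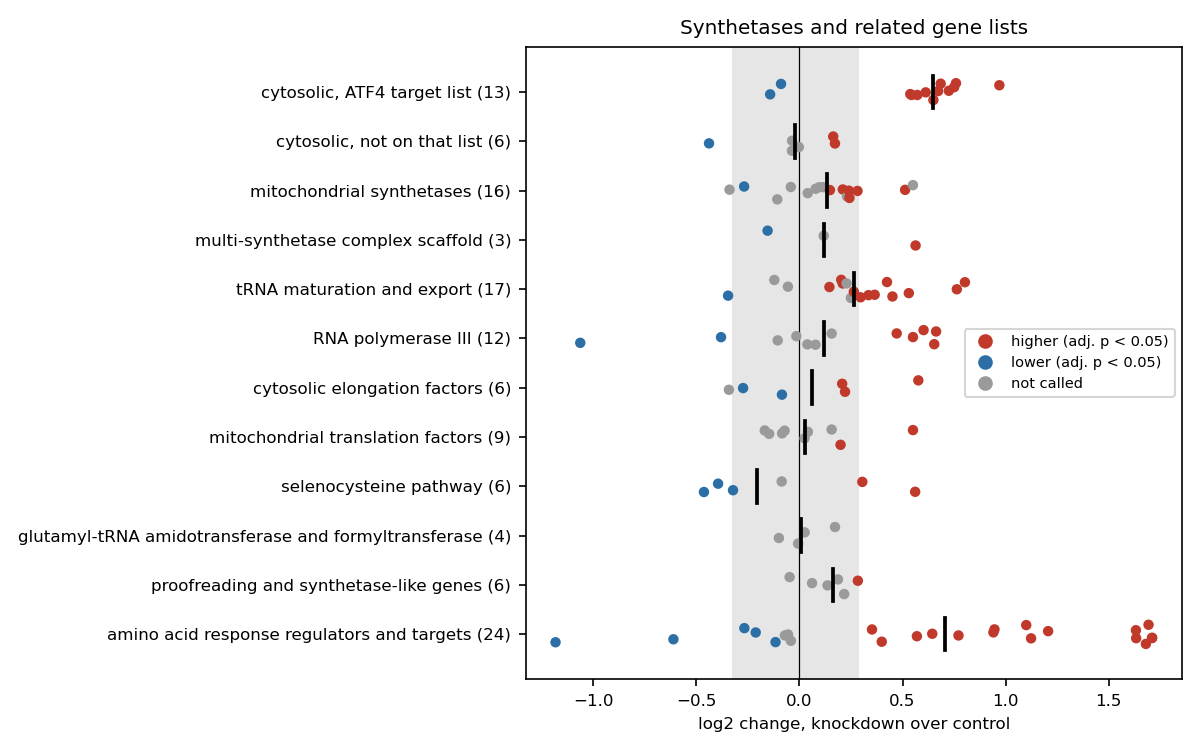
Log2 change, knockdown over control (x axis), of each tested gene in the synthetase groups and in 9 related lists (rows, gene number in brackets), with list medians as black bars and the middle 50% of all genes tested in grey. The medians are 0.65 for cytosolic synthetases on the ATF4 target list, -0.02 for the other cytosolic ones, 0.13 for the mitochondrial ones and 0.71 for the amino acid response.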

How the data were processed

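RNA was extracted with Trizol and sequenced from TruSeq libraries, per the labels' protocols. Genes were placed on hg38, the build in the submitters' processing notes. Aligner, counting program, annotation release and strand setting were not given in the sources used here. The deposited table held whole-number read counts and FPKM for 61806 genes in 6 libraries, per the file headers, and another deposited column gave exonic length in bases. FPKM recomputed from count, length and library total matched all deposited FPKM values within 0.0051.

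The main test was the two-sided quasi-likelihood F test of edgeR 4.0.16 (R 4.3.3), after filterByExpr and TMM, on the counts. P-values were adjusted by Benjamini-Hochberg over all 16354 genes tested, with a threshold of 0.05. The SE of a log2 change is that change over the root of F, and CPM uses TMM factors. Means are ± SD of 3 libraries. The 95% intervals come from that SE, which includes the spread between libraries. A floor of 3 counts is 0.150 to 0.197 CPM per library and covers counting error only. Ratios of FPKM within a library were tested with exact permutation (scipy 1.17.1). Alternatives used DESeq2 1.42.0, limma 3.58.1 on log2(FPKM + 0.1) or log2(FPKM + 1), other scalings, no filter, the replicate number as a block, and each library left out. The fit was also run on simulated counts in which few genes changed, as many up as down. That setting does not cover data in which 55.9% of genes tested are called. Libraries of a group were not duplicates (pairwise chi-square 1.92 to 4.65 per gene).

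All 35 members are named. Values per library are given for up to 4 called rises and 4 called falls per compartment by log2 change, for WARS1, GARS1 and KARS1, and of each related list up to 3 called genes per direction, those with the smallest adjusted p, are named, except 1 gene that is not reported here. Members and lists were chosen with earlier results of these data known.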

Additional observations from a re-analysis of the deposited data

How the results depend on the processing

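Under the 15 alternatives the cytosolic count of higher genes stayed between 12 and 13. With CPM in place of FPKM, or with 0.1 added to both FPKM values, the 15 differences in pair ratio kept their sign, and VARS1 over VARS2 moved most, to -0.41 with 0.1 added, in place of -0.65. Scaling to library totals moves the median log2 change of all genes to 0.07. That scaling and limma on log2(FPKM + 0.1), with or without a filter, left 1 cytosolic gene lower in place of 3. They left 0 of the ATF4 list lower in place of 2. In the same fits the 19 class I synthetases of both compartments had 2 lower genes in place of 4. With limma on log2(FPKM + 1) the ATF4 list had 1 lower gene. Under scaling to library totals and all 3 limma fits, the multi-synthetase complex had 1 lower gene in place of 2, its scaffold 2 higher and 0 lower, the elongation factors 1 lower in place of 2, and the amino acid response 3 lower in place of 5. The amidotransferase list had 1 higher gene in place of 0 with library totals and with filtered limma, and the proofreading list 2 in place of 1 with limma. Over all genes, limma called 2915 lower with a pseudocount of 0.1 and 2925 with 1, in place of 4559. DESeq2 called 2 mitochondrial genes higher and unfiltered limma 3, in place of 6. With DESeq2 and without the count filter, the multi-synthetase complex and the ATF4 list each had 1 lower gene, both without LARS1. The scaling and the units differ between these fits, and the cause of each shift was not tested.

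Leaving out 1 library gave 3 to 5 mitochondrial genes higher, 1 to 2 lower in the multi-synthetase complex, in the ATF4 list and in the elongation factors, 1 to 2 higher among cytosolic genes off the ATF4 list (1 without knockdown replicate 2), 0 to 1 lower mitochondrial translation factors (1 without control replicate 2) and 1 to 2 lower tRNA maturation genes (2 without control replicate 3).

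Among the 35 synthetases, signs changed for 5 genes that were not called, and the changed values were within 0.06 of 0 on the log2 scale. With library totals FARSA was at 0.026, FARSB at 0.059, KARS1 at 0.025 and PARS2 at 0.020. With limma at pseudocount 0.1, filtered or not, they were at 0.028, 0.058, 0.026 and 0.020, and at pseudocount 1 at 0.027, 0.055, 0.025 and 0.015. FARSB was at 0.0026 with upper-quartile factors and between -0.053 and 0.047 with 1 library left out. PARS2 lay between -0.14 and 0.050 and NARS2 between -0.034 and 0.099 in the same fits.

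Replicate numbers did not pair the libraries: deviations of same-numbered libraries correlated at 0.0474, -0.0623 and -0.0895 over 11408 genes. A fit with the replicate number as a block called 4441 genes higher and 4408 lower, with 13 higher and 2 lower cytosolic genes and 5 higher and 1 lower mitochondrial genes, and 1 lower gene in the multi-synthetase complex and in the ATF4 list.

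With 3 libraries a group, 1 line and an unstated time, these values are differences between these libraries. Genes near 1 CPM, such as VARS2, have wide errors. The summed levels rest on exonic lengths that can exceed a transcript. Overlapping genes on opposite strands cannot be told apart without strand, and strand would not separate HARS2 from ZMAT2, which lie on the same strand.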
